A study of Mus musculus with 8 samples.

Results

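The genes Myh4, Ckm, Atp2a1 and Stac2, which serve contraction and calcium handling in mature muscle fibres, were read for H3K27me3 in primary mouse myoblasts. They were chosen by gene symbol, and all 4 were found among the 273 genes of the deposited tables, each once in every library and each among the 53 genes headed DOWN in Psat1cKO. The other 220 genes are headed UP. The labels do not say how the 2 lists were made, so a heading is no independent evidence of a direction. The assay was CUT&RUN, in which an antibody directs a nuclease to cut out the DNA around a mark, and the antibody was against H3K27me3.

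The myoblasts came from hindlimb muscle and were grown in medium with horse serum and bFGF, a growth factor that keeps myoblasts dividing. Psat1cKO cells had floxed Psat1 alleles and 1 Cre allele at Pax7 (Pax7 CRE+/-; Psat1fl/fl), so that Cre is made in cells of the satellite cell lineage. Control cells had the same floxed Psat1 alleles and no Cre (Pax7 +/+; Psat1fl/fl). Psat1 encodes an enzyme of serine synthesis. Each genotype had 2 H3K27me3 libraries, named here by replicate number, and age, sex and pooling of animals are not in the labels. The 4 IgG libraries of the series were not analysed here, so no background with a control antibody was measured.

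H3K27me3 is placed by Polycomb repressive complex 2 and is typical of genes held silent, among them genes of other lineages and of later stages of the same lineage. In the muscle lineage, dividing myoblasts keep the genes of the contractile apparatus off. The cells switch these genes on when they leave the cell cycle and fuse into fibres, under myogenic factors that bind E-boxes (CANNTG) and with MEF2 factors. Myh4 encodes the myosin heavy chain of the fastest fibres, Ckm the muscle creatine kinase that regenerates ATP at the contractile filaments, and Atp2a1 the SERCA1 pump that returns calcium to the sarcoplasmic reticulum of fast fibres. Stac2 encodes an adaptor protein that binds voltage-gated calcium channels, a relative of the Stac3 protein of excitation-contraction coupling.

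A value is signal, that is, sequencing coverage as the authors scaled it, at a fixed number of points from upstream to downstream of a gene. Points 21 to 81 were taken to span the gene, as neighbouring values repeat more often there than in the flanks. Points 1 to 20 then lie upstream and points from 82 on downstream, and the exact ends were not located. The level of a gene is its mean signal over all points of its profile, a value per point that was set beside that of other genes. By the inferred layout a point within the gene stands for 371 bases in Myh4 and 172 in Ckm, and flank widths are not given. Gene and flanks may thus have unlike weights per base in different genes. In all 4 libraries most values were whole multiples of 1 step, 0.106 and 0.112 in Psat1cKO replicates 1 and 2 and 0.0907 and 0.115 in control replicates 1 and 2. If a step is 1 read per 1000000 reads, the libraries held 8700000 to 11000000 reads, and the sparsest profile of the 4 genes, that of Atp2a1 in Psat1cKO replicate 1, summed to 25 steps. The same small numbers of steps limit all statements on single points.

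The coordinates are on GRCm38.p6, the assembly of mm10. Myh4 lies on the plus strand of chromosome 11 (67237812 to 67260447) in the row of fast myosin genes, with Myh1 13234 bases upstream and Myh8 16676 bases downstream. These genes are close copies, and the labels do not say how reads that fit several of them were treated, so the level of Myh4 is uncertain to that extent. Ckm is on the plus strand of chromosome 7 (19411094 to 19421583) and shares 3952 bases of its 3′ part with the long noncoding RNA gene A930016O22Rik (19417466 to 19421417). Atp2a1 is on the minus strand of chromosome 7 (126445858 to 126463103), and its 3′ end overlaps Rabep2 by 50 bases. Stac2 is on the minus strand of chromosome 11 (98036623 to 98053462), 29091 bases from the coding gene upstream of it, Fbxl20. CUT&RUN reads carry no strand of transcription, so signal in shared stretches belongs to both genes.

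The 250 bases before the start, taken from RefSeq, are shown for the 3 members with a promoter in the reference table, since H3K27me3 was read across them and Polycomb is usually most abundant at CpG-rich starts. They are 5′ to 3′ on the strand of the gene, with E-boxes (CANNTG, a motif that reads the same on both strands) in capitals.
Myh4 (GRCm38.p6, chr11:67237562-67237811, plus strand): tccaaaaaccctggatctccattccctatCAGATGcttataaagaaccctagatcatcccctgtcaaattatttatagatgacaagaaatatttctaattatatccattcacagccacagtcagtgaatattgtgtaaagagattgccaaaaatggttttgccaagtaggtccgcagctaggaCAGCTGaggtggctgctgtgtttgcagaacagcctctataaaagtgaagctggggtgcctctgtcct
Ckm (GRCm38.p6, chr7:19410844-19411093, plus strand): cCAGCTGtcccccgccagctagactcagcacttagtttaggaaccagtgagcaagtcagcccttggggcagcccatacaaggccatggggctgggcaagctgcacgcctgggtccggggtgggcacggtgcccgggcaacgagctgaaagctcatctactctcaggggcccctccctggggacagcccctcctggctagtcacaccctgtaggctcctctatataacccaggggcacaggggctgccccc
Atp2a1 (GRCm38.p6, chr7:126463074-126463323, minus strand): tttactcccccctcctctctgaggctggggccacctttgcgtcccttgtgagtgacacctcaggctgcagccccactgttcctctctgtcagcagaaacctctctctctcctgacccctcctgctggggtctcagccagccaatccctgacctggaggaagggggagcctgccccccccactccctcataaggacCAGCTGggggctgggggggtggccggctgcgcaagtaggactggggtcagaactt
Stac2 is named only. For Atp2a1 the promoter table places the start slightly inside the 5′ end of the gene given above.

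All 3 windows had a low ratio of observed to expected CpG, while the CpG number of Ckm was at the median of all promoters. Over 300 bases, the 250 shown and the first 50 of the transcript, Myh4 had 1 CpG, Ckm 7 and Atp2a1 4. The ratio of observed to expected CpG was 0.0722 for Myh4, 0.226 for Ckm and 0.137 for Atp2a1, against medians of 0.501 over the 192 genes of the tables with a promoter sequence and 0.384 over all 32851 promoters of the reference. The median CpG number was 12 in the tables' genes and 7 in all promoters. Only 0.521% of the tables' genes had fewer CpG than Myh4, which ranked 51 of 273 in mean signal, as the plot of CpG number and signal shows. Across the 192 genes, CpG number and mean signal had a Spearman rho of 0.27, a description over genes that share the same 4 libraries.

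**Figure D1:**
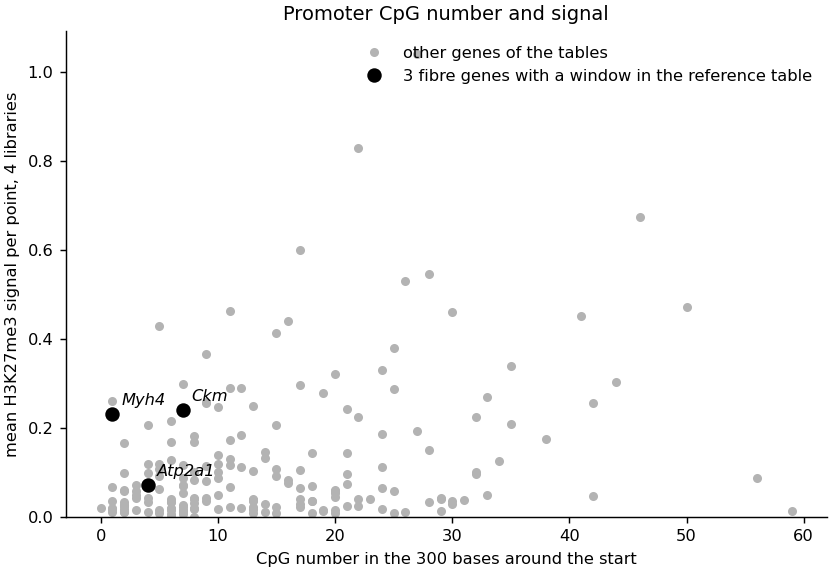
CpG number in the 300 bases around the start (x axis) against the mean H3K27me3 signal per point over the 4 libraries (y axis) for 192 genes. Black points are Myh4, with 1 CpG, Ckm, with 7, and Atp2a1, with 4, and the grey points are the other genes.

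An E-box was present in each of the 3 windows. In Ckm it begins 249 bases before the start and in Atp2a1 55 bases before it, while Myh4 has E-boxes 221 and 67 bases before and another 42 bases into the transcript. At least 1 E-box was found in 72.3% of all promoters of that length and in 63% of those of the tables' genes, and at least 3 in 17.6% and 12.5%. The MEF2 motif, searched on both strands, occurred once in Myh4, 182 bases before the start and matching on both strands, and in neither Ckm nor Atp2a1. It was present in 3.19% of all promoters. A match is a match of letters and does not show that a factor binds.

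Myh4 and Ckm carried more H3K27me3 than most genes of the tables in every library, and Stac2 and Atp2a1 had lower levels than those 2 in every library. In bulk libraries such as these, a mark on fewer cells and a weaker mark in each cell cannot be told apart. Myh4 had a mean signal of 0.198 and 0.297 in Psat1cKO replicates 1 and 2, against 0.200 and 0.229 in control replicates 1 and 2. Its percentile among the 273 genes stayed within 79.9 and 85 in the 4 libraries, the narrowest range of the 4 members. Ckm had 0.184 and 0.327 in Psat1cKO, against 0.162 and 0.286 in control, at percentiles of 78.4 to 87.5. In both genotypes, Ckm was therefore higher in replicate 2 than in replicate 1 by more than the genotypes differed.

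Stac2 had 0.0781 and 0.186 in Psat1cKO, against 0.0382 and 0.149 in control, at percentiles of 37.7 to 75.8. Atp2a1 had 0.0263 and 0.128 in Psat1cKO, against 0.0342 and 0.101 in control, at percentiles of 19.8 to 69.96 among the 273 genes, the widest range of the 4 members. Both were near or below the median gene of the tables in the replicate 1 libraries and above it in the replicate 2 libraries. The median gene of the tables had 0.0748 and 0.0542 in Psat1cKO and 0.0633 and 0.0637 in control.

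The order of the 4 levels was the same in all libraries except at its top. Myh4 was first and Ckm second in both replicate 1 libraries, and Ckm first in both replicate 2 libraries, with Stac2 after them and Atp2a1 last throughout. Averaged by genotype, Ckm had 0.255 ± 0.101 and Myh4 0.247 ± 0.0699 in Psat1cKO, and Ckm had 0.224 ± 0.0878 and Myh4 0.215 ± 0.0209 in control (SD, n = 2 each). The means of these neighbours lay closer together than their SDs. So did those of Stac2 and Atp2a1, at 0.132 ± 0.0766 and 0.0769 ± 0.0716 in Psat1cKO and 0.0936 ± 0.0784 and 0.0678 ± 0.0475 in control (SD, n = 2 each). All 4 genes were read in the same libraries, so an SD holds a replicate difference that they share. It is not the spread of a comparison of 2 genes within a library, where Stac2 was above Atp2a1 each time.

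**Figure D2:**
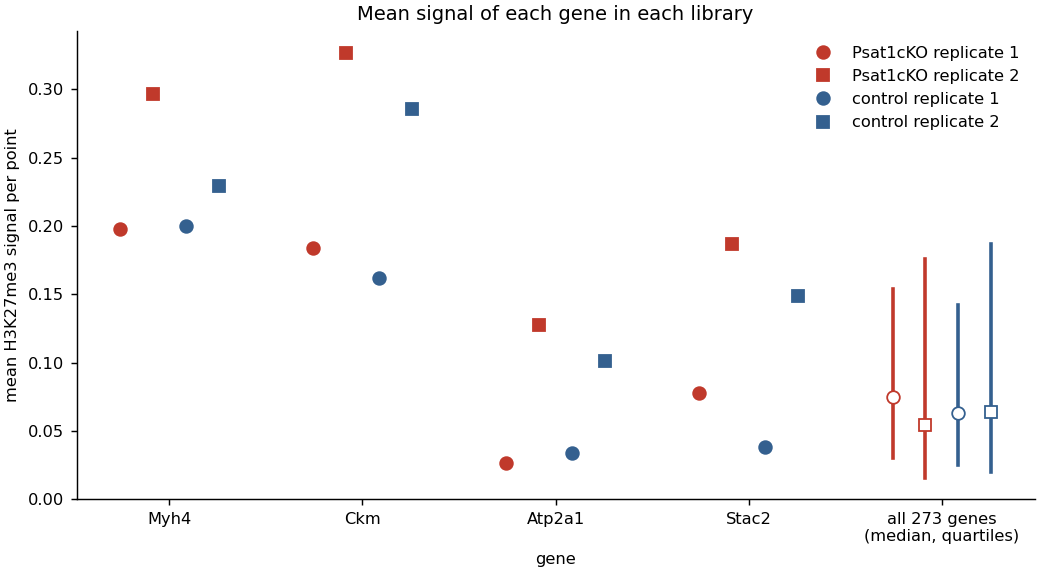
Mean H3K27me3 signal per point (y axis) of each gene in each library; circles are replicate 1 and squares replicate 2, red is Psat1cKO and blue is control, and open symbols with bars give the median and quartiles of all 273 genes. For each of the 4 genes both replicate 2 libraries lie above both replicate 1 libraries, and Psat1cKO and control overlap.

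The comparison of the genotypes asked whether H3K27me3 at these genes differs between Psat1cKO and control cells. The genotypes differ in the Cre allele at Pax7, and its effects cannot be told apart from those of Psat1 loss. None of the 4 passed limma, and neither did any of the 218 genes with enough signal to test (0% called at an adjusted p below 0.05, with a smallest adjusted p of 0.999). At an unadjusted p below 0.05, 1 gene was higher (0.459%) and 0 were lower, and none of the 4 fibre genes was among them. In none of the 4 were both Psat1cKO libraries above both control libraries, which was so for 5.05% of the genes tested, or both below (10.6%). An exact permutation test of 2 against 2 libraries can reach no two-sided p below 0.333.

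Stac2 had the largest difference of the 4, with ratios of Psat1cKO to control of 2.05 in replicate 1 and 1.25 in replicate 2. Its log2 change on log2(sum of the points + 1) was 0.59 ± 0.64 (SE; 95% interval -0.84 to 2.02; limma adjusted p = 0.999). Without control replicate 1 the log2 change was -0.27 and without control replicate 2 it was 1.45, while without Psat1cKO replicate 1 it was 1.17 and without Psat1cKO replicate 2 it was 0.01. Such fits set 2 replicates against 1 and also carry the difference between replicates.

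For Ckm the ratio was 1.14 in both replicates, with a log2 change of 0.18 ± 0.43 (SE; 95% interval -0.79 to 1.15; limma adjusted p = 0.999), with -0.22 without Psat1cKO replicate 2 and -0.21 without control replicate 1. Myh4 had a ratio of 0.99 in replicate 1 and 1.29 in replicate 2, and its log2 change was 0.17 ± 0.37 (SE; 95% interval -0.67 to 1.01; limma adjusted p = 0.999), and -0.11 without Psat1cKO replicate 2. The ratios of Atp2a1 were 0.767 and 1.26, on opposite sides of 1, and its log2 change was 0.01 ± 0.70 (SE; 95% interval -1.57 to 1.59; limma adjusted p = 0.999). Without Psat1cKO replicate 2 that of Atp2a1 was -0.95 and without control replicate 1 it was -0.66, while without Psat1cKO replicate 1 it was 0.97 and without control replicate 2 it was 0.68. All 4 intervals span changes of 1.5 times in either direction. This fit has no replicate term and could not exclude differences of that size. With the replicate number as a block, SEs were 0.11 for Ckm, 0.15 for Myh4, 0.26 for Atp2a1 and 0.23 for Stac2. The labels do not say whether the replicate numbers pair the libraries.

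By direction alone, Ckm and Stac2 were higher in Psat1cKO in both replicates, 2 of the 4 genes, against 22.9% of the genes tested and 50% of the other 36 DOWN genes tested. None of the 4 was lower in both, against 33% of the genes tested. The median log2 change of the 4 was 0.18, against -0.04 over all genes tested and 0.15 over the other 36 DOWN genes. The values of the 4 thus lie close to those of the list that they come from.

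**Figure D3:**
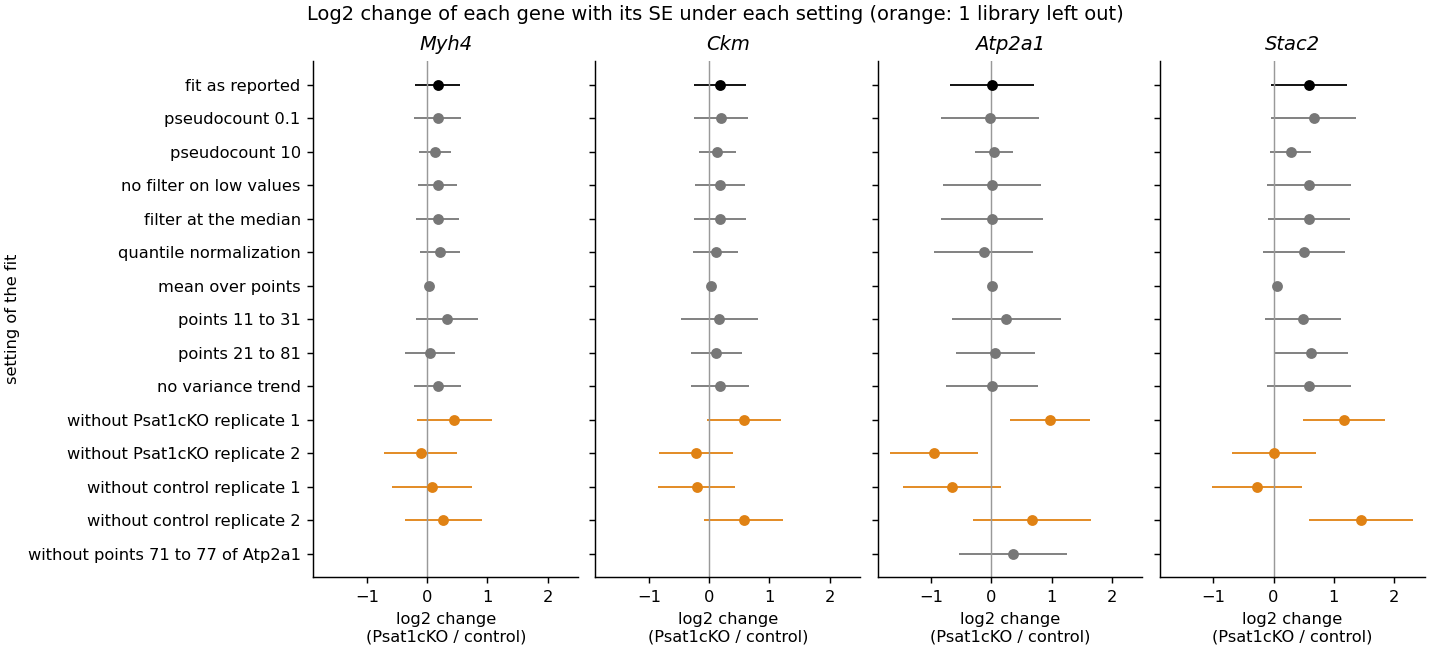
Log2 change of each gene (x axis, Psat1cKO over control, bars are the SE) under the settings of the fit (rows). Black is the fit as reported, grey other settings and orange fits without 1 library. The fit with the replicate number as a block is not drawn. The log2 change of Stac2 runs from -0.27 to 1.45 and that of Atp2a1 from -0.95 to 0.97 as libraries are left out, while Myh4 stays between -0.11 and 0.45.

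For Ckm, Atp2a1 and Stac2 the replicate numbers differed by larger factors than the genotypes did, and for Myh4 this was so in Psat1cKO but not in control. Replicate 2 exceeded replicate 1 by a factor of 1.5 for Myh4, 1.78 for Ckm, 4.86 for Atp2a1 and 2.39 for Stac2 in Psat1cKO, and by 1.15, 1.77, 2.96 and 3.90 in control. All 4 genes were higher in replicate 2 in both genotypes, against 31.2% of the 218 genes tested. The other DOWN genes did the same in 29 of 36 cases (80.6%), so this is no property of the 4 alone. The median log2 difference of replicate 2 minus replicate 1 was 0.98 for the 4 genes and -0.31 for all genes tested in Psat1cKO, and 1.06 and -0.04 in control. What differed between the replicates is not in the labels.

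The 4 genes also differed in where the mark lay along the gene, as the plot of the profiles shows. Stac2 had its mark just inside the start, Ckm mostly at points 42 to 81 and Myh4 throughout gene and flanks. Atp2a1 had its mark in different places in the replicates.

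**Figure D4:**
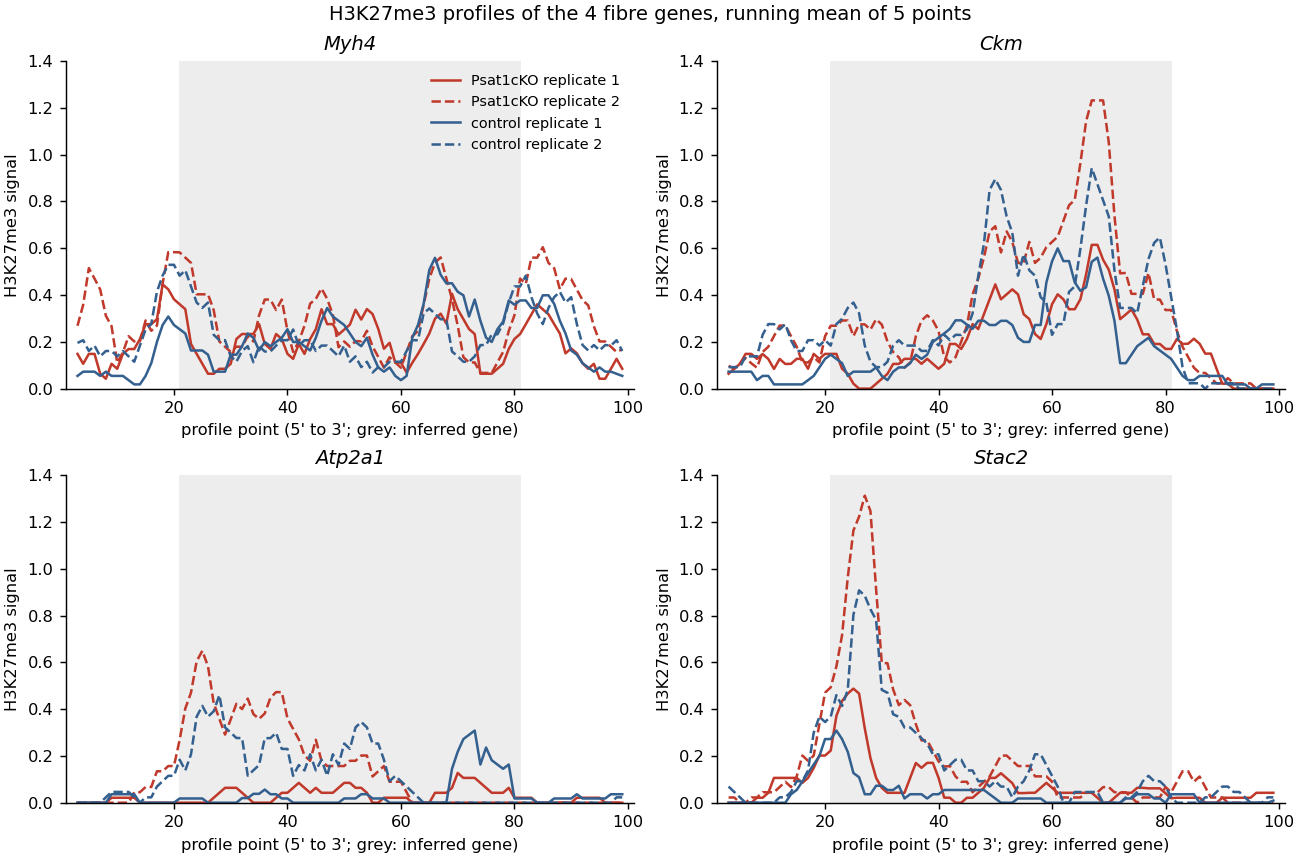
H3K27me3 signal (y axis, running mean of 5 points) along the profile points, 5′ to 3′ (x axis), of the 4 genes, with the inferred gene in grey; red is Psat1cKO, blue is control, solid lines are replicate 1 and dashed lines replicate 2. Stac2 peaks shortly after the start in all 4 libraries, Ckm peaks in the second part of the gene and is low after its end, and Atp2a1 has its peak in the first part of the gene in replicate 2 but not in replicate 1.

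Stac2 had the highest share of signal at points 21 to 41 of all 218 genes tested, 63.6% of its mean profile over the 4 libraries, against a median of 23.1%. The share was 53.1% and 70.9% in Psat1cKO replicates 1 and 2, against 54.1% and 62.6% in control replicates 1 and 2. The level there was 0.200 and 0.635 in Psat1cKO, against 0.0993 and 0.448 in control, and was higher in Psat1cKO in both replicates, by ratios of 2.01 and 1.42. Over points 42 to 81 the ratios were 2.61 and 0.940, with no common direction. The highest stretch of 5 points was centred on points 25 and 27 in Psat1cKO and on points 22 and 26 in control, where its mean signal was 0.488 and 1.31 in Psat1cKO, against 0.308 and 0.908 in control. At most 17 steps covered a single point of Stac2, in Psat1cKO replicate 2.

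Ckm had 73% of its mean profile at points 42 to 81, a share exceeded by 4 of the 218 genes (median 28.9%). That share was 71.4% and 73.3% in Psat1cKO, against 75.6% and 72.1% in control, so the main stretch of Ckm kept nearly the same share in all 4 libraries. Little signal lay after the gene, where the downstream points held 7.46% and 2.71% of the signal in Psat1cKO, against 3.89% and 0.797% in control. The noncoding gene A930016O22Rik spans points 57 to 80 by the inferred layout. Mean signal over these points was 0.340 and 0.70 in Psat1cKO, against 0.347 and 0.527 in control. Over the points of Ckm before it, it was 0.180 and 0.334 in Psat1cKO, against 0.177 and 0.335 in control. The shared stretch was thus higher than the pooled points before it in every library. That pool holds points 21 to 41, at 0.0807 and 0.236 in Psat1cKO, against 0.117 and 0.203 in control. Points 42 to 81, which include the shared stretch, had 0.331 and 0.605 in Psat1cKO, against 0.308 and 0.520 in control. These levels were close to those of the shared stretch in Psat1cKO replicate 1 and control replicate 2. The mark was thus not confined to that stretch there. Within it, whether the mark belongs to one gene or the other cannot be told from these values.

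Myh4 had no single peak. Its mean profile had 18.3% of the signal upstream, 20.6% at points 21 to 41, 40.2% at points 42 to 81 and 21% downstream, against medians of 25.7%, 23.1%, 28.9% and 12.4% over the genes tested. Only 23 and 17 of its points were at 0 in Psat1cKO, against 23 and 15 in control, the fewest of the 4 genes in every library. Upstream of the gene the level was 0.201 and 0.308 in Psat1cKO, against 0.104 and 0.239 in control, higher in Psat1cKO in both replicates. At points 42 to 81 it was 0.215 and 0.244 in Psat1cKO, against 0.276 and 0.201 in control, with no common direction. With only the points of the gene itself the log2 change of Myh4 was 0.04 (limma adjusted p = 0.997).

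Atp2a1 differed by replicate number in shape as well as in amount. In replicate 2, points 21 to 41 held 68.7% of the signal in Psat1cKO and 52.8% in control, and the last part of the profile was at 0, from point 60 to the end in Psat1cKO and from point 62 to 99 in control. In replicate 1, points 21 to 41 held 20% in Psat1cKO and 10.8% in control. Most of the replicate 1 signal was instead at points 42 to 81, 72% in Psat1cKO and 73.5% in control. The level at points 21 to 41 was 0.0253 and 0.421 in Psat1cKO, against 0.0177 and 0.257 in control, so the replicates differed there by factors of 16.7 in Psat1cKO and 14.5 in control. Ratios of Psat1cKO to control were 1.43 and 1.64 at these points. In replicate 1, 16 of these 21 points were at 0 in Psat1cKO and 17 in control. The factors and the ratio of 1.43 thus rest on few steps.

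A short stretch of Atp2a1, points 71 to 77, was left out to see how far the ratio in replicate 1 depends on it. It held 65.6% of the signal of control replicate 1 and 28% of that of Psat1cKO replicate 1, and was at 0 in both replicate 2 libraries. Without it the ratio of Psat1cKO to control was 1.61 in replicate 1 and 1.26 in replicate 2, and the log2 change of Atp2a1 was 0.36 ± 0.90 (SE; limma adjusted p = 0.999). This stretch was picked after the profiles had been seen, as one that held most of the signal of control replicate 1. Leaving it out could therefore only raise the ratio in replicate 1, so the 1.61 is no evidence of a direction.

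**Figure D5:**
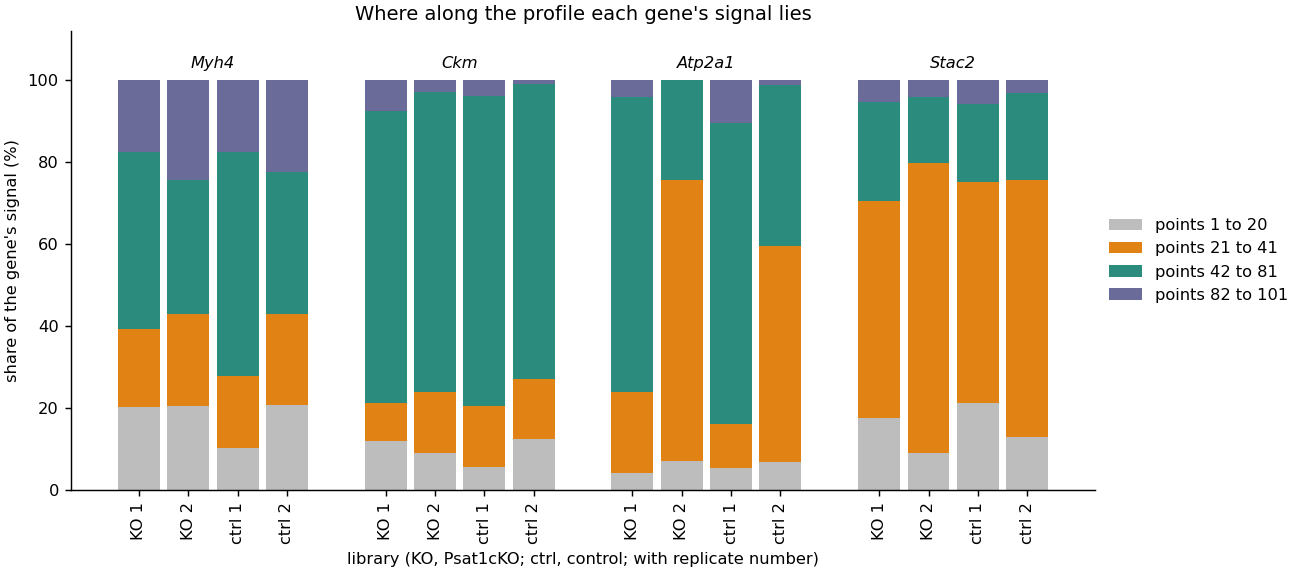
Share of each gene's signal (y axis, %) in 4 stretches of the profile for each library (x axis; KO is Psat1cKO, ctrl is control, with the replicate number). Points 21 to 41 hold 53.1 to 70.9% of the signal of Stac2 and points 42 to 81 hold 71.4 to 75.6% of that of Ckm, while those of Atp2a1 depend on the replicate number.

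Profiles of the same gene were compared between libraries by Pearson's r over all points, as a description without a test, since neighbouring points can share reads. For Ckm, r was 0.60 and 0.70 between Psat1cKO and control of replicates 1 and 2, 0.69 between the Psat1cKO libraries and 0.48 between the control libraries. For Atp2a1 it was 0.51 and 0.53 between genotypes within a replicate number, but 0.06 between the Psat1cKO libraries and -0.05 between the control libraries. Stac2 had 0.38 and 0.79 between genotypes, and 0.52 and 0.30 between the replicates of Psat1cKO and of control. Myh4 had 0.32 in each replicate between genotypes, and 0.34 and 0.25 between the replicates of Psat1cKO and of control. Medians over all genes tested were 0.49 and 0.36 between genotypes, and 0.41 and 0.42 between the replicates of Psat1cKO and of control.

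The genes with the most similar profiles were sought among the other 217 genes tested, by Pearson's r over all points of the profile averaged over the 4 libraries. For Stac2 these were Aebp1 (r = 0.76) and Crabp1 (r = 0.72), for Ckm Eva1b (r = 0.74) and Ampd1 (r = 0.65), and for Atp2a1 Inhba (r = 0.62) and Stac2 itself (r = 0.58). The averaged profile of Atp2a1 mostly reflects replicate 2, with a summed signal of 12.9 in Psat1cKO and 10.2 in control. In replicate 1, where its shape was unlike that in replicate 2, the sums were 2.65 and 3.46. For Myh4 the closest were Efemp1 (r = 0.37) and Pla2g4a (r = 0.34), the lowest values of r for a closest gene among the 4. Of the 8, Ampd1 and Stac2 are DOWN genes. Ampd1, the muscle form of AMP deaminase, had a mean signal of 0.0788 and 0.102 in Psat1cKO, against 0.0709 and 0.143 in control, with 77.3% and 81.5% of it at points 42 to 81 in Psat1cKO, against 83.5% and 79.9% in control. Like Ckm, it thus had most of its mark along the gene rather than at its start.

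Few other fibre genes could be read. Of 47 genes listed for the contractile apparatus only Myh4 was in the tables, of 23 for calcium handling only Atp2a1 and Stac2, of 14 for energy supply only Ckm, Ampd1 and Cox8b, and of 8 for the nerve-muscle junction and fusion none. Ampd1 had a log2 change of -0.16 ± 0.48 (SE; limma adjusted p = 0.999), with ratios of 1.11 and 0.715. Cox8b, a cytochrome c oxidase subunit of muscle, had 0.00473 and 0.00676 in Psat1cKO, against 0.0234 and 0.00683 in control, too little to test. None of the genes of these lists that were tested was called at an adjusted p below 0.05 (limma), as for all 218 genes tested.

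Of 11 myogenic regulators, Pax7, Myf5 and Myf6 were in the tables. Pax7, which specifies satellite cells, had 0.279 and 0.516 in Psat1cKO, against 0.0333 and 0.357 in control, at a locus that carries Cre in Psat1cKO. Myf5, a determination factor, had 0.0193 and 0.0869 in Psat1cKO, against 0.0162 and 0.105 in control. Myf6, a myogenic factor of differentiated fibres, had 0.0116 and 0.175 in Psat1cKO, against 0.0487 and 0.148 in control. All 3 were higher in replicate 2 in both genotypes, as Myh4, Ckm, Atp2a1 and Stac2 were. Pax7, Myf5 and Myf6 are DOWN genes. Of the DOWN genes tested other than Myh4, Ckm, Atp2a1 and Stac2, 80.6% did the same, against 31.2% of all genes tested. The direction is thus no property of muscle genes alone. Cox8b, with too little signal to test, was lower in replicate 2 in control.

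The cell type could not be checked against its markers, since the values are of a repressive mark and not of RNA. The summed level of the 3 myogenic regulators was 0.309 and 0.778 in Psat1cKO, against 0.0982 and 0.610 in control. Of the 3, only Pax7 was higher in Psat1cKO in both replicates, and its locus carries Cre there. For 7 of 10 fibro-adipogenic markers the summed level was 1.72 and 1.29 in Psat1cKO, against 1.83 and 1.55 in control, and was lower in replicate 2. Not every marker was lower there, since Timp1 was higher in replicate 2 in both genotypes, and Col1a2 and Pdgfra in control. The only endothelial marker present of 5, Cdh5, had 0.0483 and 0.0610 in Psat1cKO, against 0.0301 and 0.0490 in control, and 0 of 5 immune markers were in the tables. Their part in the results on the fibre genes was not tested.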

How the data were processed

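The deposited values are a signal, the coverage of each library at a fixed number of points per gene, and the scaling by the authors is not stated in the sources used here. Trimmomatic 0.36, Bowtie, Picard 2.22.2 and build mm10 are named in the submitters' processing notes, without order or settings. Between 90.9% and 92.4% of values above 0.01 were whole multiples of a library's step (tolerance 0.02 of a step). A point below 1e-06 was counted as 0. The table number was taken as the replicate number, and nothing says that replicates were separate animals or cultures, so p-values may measure technical spread only.

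Neighbouring points were equal in 25.0% of cases within points 22 to 80 of the 69 shortest genes, and in 9.68% upstream and 9.20% downstream. The gene was therefore taken to span points 21 to 81. Only these stretches were compared, so its exact ends were not located. Signal was higher around points 21 to 41 than along the gene on both strands, so profiles run 5′ to 3′. Flank widths are not given.

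The fit took in the 218 genes, among them all 4 fibre genes, whose sum exceeded the lower quartile of all sums (2.35) in at least 2 libraries. It was made with limma 3.58.1 in R 4.3.3, with a variance trend, on log2(sum + 1), with Benjamini-Hochberg adjustment and no replicate term. Python 3.11.15, numpy 2.4.6, pandas 2.3.3 and matplotlib 3.10.9 were used otherwise. Genes were matched to RefSeq by accession (268) or symbol (5). The 4 genes and all lists were chosen with earlier results of these data known. Named are the 4 genes, list members in the tables and the 2 most similar profiles per gene.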

Additional observations from a re-analysis of the deposited data

How the results depend on the processing

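None of the 4 genes passed limma under any of the planned or added settings (adjusted p from 0.653 to 1). The count of genes called stayed at 0, except that without control replicate 2 it was 1 (Pax7), so leaving out a library gave 0 to 1. Stac2 kept its direction in 13 of 14 alternatives, Myh4 in 13 of 14, Ckm in 12 of 14 and Atp2a1 in 11 of 15. Settings that change only the replicate number as a block, the filter on low sums or the variance trend cannot alter a log2 change. Direction was fixed there in advance, so these counts overstate how stable it is. As 1 library after another was left out, log2 changes ran from -0.27 to 1.45 for Stac2, from -0.11 to 0.45 for Myh4, from -0.22 to 0.58 for Ckm and from -0.95 to 0.97 for Atp2a1. Fits that leave 1 library in a genotype assume that it varies like the others. With all libraries, Atp2a1 was below 0 after quantile normalization (-0.13) and with a pseudocount of 0.1 (-0.021), and the cause was not tested. The mean in place of the sum makes the pseudocount large beside the signal, and the log2 change of Stac2 was then 0.05.

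The labels give both genotypes the replicate numbers 1 and 2 without saying what they share. Replicate differences correlated across genes between the genotypes (r = 0.76), but with 2 pairs this is a hint only. With the replicate number as a block 0 genes were called and the smallest limma adjusted p was 0.653, reached by Stac2 (log2 change 0.59 ± 0.23, SE). Genes at an unadjusted limma p below 0.05 were then 15 of the 218 tested, in place of 1 of 218. Depth limits Atp2a1 most, since its replicate 1 profiles summed to 25 steps in Psat1cKO and 38.1 in control.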
